A study of Mus musculus with 4 samples.

Results

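The genes described here are 10 genes of the mouse two-cell embryo program that lie outside the Zscan4 and Usp17l families, namely Sp110, Nat8f2, Zfp560, Zfp352, Gm4340, Gm2022, Tcstv1, Tcstv3, Tdpoz4 and Duxf3, the gene for Dux. They were picked by symbol from the 55335 genes of the deposited tables, in part because their reads in these same libraries were already known, so the lactate against control values below are a description and no test of the 10 genes is drawn from them. The RNA-seq libraries came from AB2.2, mouse ESCs cultured over MEF feeders in medium with 15% serum, 1000 U/ml LIF and the inhibitors CHIR99021 (3 μM) and PD0325901 (1 μM). There were 2 control libraries and 2 libraries of the same line kept for 24 h in 50 mM lactate, and the labels do not say whether replicates were separate cultures. Gene reads numbered from 18067562 to 19077885 per library.

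In the mouse, the embryo starts its main wave of transcription at the two-cell stage, and a small, changing share of cultured ESCs briefly turns on the same genes. Dux, a transcription factor with a pair of homeodomains, binds and activates many of these genes together with the endogenous retrovirus MERVL, whose long terminal repeats serve as promoters for some of them. Several of the genes exist as clusters of near-identical copies, so a short read often cannot be given to a single copy. In bulk RNA, more cells in the two-cell-like state and more RNA per such cell cannot be told apart.

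The identity of the cells was checked with marker genes. All 8 pluripotency markers were present in every library, with summed levels of 5110 and 5560 CPM (gene reads scaled by library total and TMM) without lactate and 5540 and 6330 with it, and none of the 8 was called, which took an edgeR adjusted p-value below 0.05 together with more than a 2-fold difference. At an unadjusted p-value under 0.05 (edgeR), 3 of them were higher, against 11.7% of all genes tested, and DESeq2 called none. The 8 feeder fibroblast markers, none at 0 in any library, summed to 401 and 585 CPM without lactate and 405 and 458 with it. None of these was called by edgeR or DESeq2. At an unadjusted p-value under 0.05 (edgeR), 1 was higher and 1 lower, against 11.7% and 11.4% of all genes tested. The 6 primitive endoderm markers, also none at 0, summed to 16 and 14.4 CPM without lactate and 27.1 and 20 with it. The 5 with enough reads to be tested were all higher, as were 51% of all genes tested, and edgeR and DESeq2 called none. At an unadjusted p-value under 0.05 (edgeR), 2 of the 5 were higher, against 11.7% of all genes tested. Of the 5, 1 had enough reads only through its lactate libraries, so its direction was set in part by the filter on low counts. The 5 trophoblast markers summed to 25.8 and 20 CPM against 23 and 17.8. The part of these cells in the values of the 10 genes was not tested.

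Promoter sequences are shown first for the genes in which the upstream sequence is shared. RefSeq promoter windows on GRCm38.p6 were found for 7 of the 10 genes, as 8 windows. Sp110, which encodes a nuclear body protein of the SP100 family, has a pair of RefSeq start sites 5081 bases apart. The start site farther upstream, at 85603891 on chromosome 1, lies outside the Sp110 gene of GENCODE release M21, which begins at 85598817 on the minus strand. The 250 bases before this upstream start (chr1:85603892-85604141, minus strand) and the 250 bases before the start of Gm4340 (chr10:104193792-104194041, plus strand) hold an identical run of 86 bases, given in capitals. The run ends directly at the Sp110 start and 3 bases before that of Gm4340. Zfp352, which encodes a zinc finger protein, is shown beside them (chr4:90218570-90218819, plus strand), because a part of 15 bases of this run recurs in it, and there the capitals mark that part.
Sp110: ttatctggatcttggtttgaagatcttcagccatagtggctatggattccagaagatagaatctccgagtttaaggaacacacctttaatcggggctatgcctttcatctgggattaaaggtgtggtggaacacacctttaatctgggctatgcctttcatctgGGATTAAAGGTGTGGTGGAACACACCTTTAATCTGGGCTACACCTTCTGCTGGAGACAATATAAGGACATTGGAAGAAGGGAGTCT
Gm4340: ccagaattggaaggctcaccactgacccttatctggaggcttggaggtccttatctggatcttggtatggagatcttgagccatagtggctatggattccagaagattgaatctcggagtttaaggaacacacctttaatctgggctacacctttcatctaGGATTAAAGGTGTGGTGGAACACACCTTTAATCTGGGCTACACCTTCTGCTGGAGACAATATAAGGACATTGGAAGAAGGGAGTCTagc
Zfp352: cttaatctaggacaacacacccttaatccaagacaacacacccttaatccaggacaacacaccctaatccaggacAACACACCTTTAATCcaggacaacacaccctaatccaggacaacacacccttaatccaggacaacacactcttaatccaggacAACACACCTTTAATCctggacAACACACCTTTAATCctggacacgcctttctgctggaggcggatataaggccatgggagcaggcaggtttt

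The 86-base run was present in 9 of 32851 promoters (0.0274%), 2 of them those of Sp110 and Gm4340. Its 15-base part AACACACCTTTAATC was found in 23 promoters (0.0700%), and in the windows printed above it occurs 3 times for Sp110, 2 times for Gm4340 and 3 times for Zfp352. Apart from these 3 windows, no pair of member promoters shared a run of more than 10 bases. The letters TATAAA, on either strand, were in none of the 8 windows of the members and in 13.6% of all promoters. A match or its absence describes these letters only.

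In a search made after the sequences had been seen, stretches of 30 bases from the shared run stood in 25 promoters of 24 genes. Besides Sp110 and Gm4340, 15 of these genes were in the count table, and only 3 had enough reads to be tested (filterByExpr of edgeR). All 3 had positive log2 fold changes, namely Sgk1 with 0.84 (standard error 0.14, adjusted p-value 0.0520, edgeR), Pemt with 0.48 (0.28, adjusted p-value 0.358, edgeR) and Arih2 with 0.30 (0.13, adjusted p-value 0.237, edgeR). None was called, and Sgk1 alone had an unadjusted p-value under 0.05. Counts per gene do not tell which start site was used. The 12 others had at most 8 raw reads in any library. Among them, Gm8764, Gm21312, Gm21304, Gm21293 and Gm20765 each hold 94.7% of the 100-base windows of Gm4340 transcripts. Raw reads of these copies and of Gm4340 are therefore hard to tell apart. RSEM, described below, gave Gm8764 no reads. It gave each of the other named copies from 23.6 to 46.7 reads per library without lactate and from 57.7 to 120 with it.

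Sp110 had 17 and 22 reads without lactate and 55 and 65 with it. Both lactate libraries thus lay above both control libraries, at 3.13 ± 0.238 CPM against 1.07 ± 0.125 (SD, n = 2), for a log2 fold change of 1.54 ± 0.26 (SE). RSEM, a program that divides shared reads among genes by likelihood and whose tables the authors deposited, gave Sp110 10.8 and 5.08 reads without lactate and 31.0 and 33.3 with it. The raw total was therefore 198% of the RSEM total, while the direction was the same in both. Sp110 (chromosome 1, 85576899 to 85598817) has up to 12 exons in a transcript and overlaps 392 exonic bases of G530012D18Rik on the opposite strand, which had 0 reads in every library.

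Among the relatives of Sp110, Gm16026 holds 12.6% of the 100-base windows of Sp110. Gm16026 had 7 and 12 reads without lactate and 20 and 30 with it. Of 7 relatives, 5 had enough reads to be tested, and edgeR and DESeq2 both called none of them. Gm16026, A530040E14Rik and C130026I21Rik passed the filter only through their lactate libraries, so that they were higher was set in part by the filter, and nothing is read from their unadjusted p-values under 0.05. A530040E14Rik had 3 and 2 reads without lactate and 14 and 12 with it, for a log2 fold change of 2.25 ± 0.50 (SE). C130026I21Rik had 3 and 4 against 16 and 11 reads, for a log2 fold change of 1.84 ± 0.49 (SE). The SP100 family genes Sp100 and Sp140, named after their values were seen, had negative log2 fold changes. Sp100 had 30 and 28 reads without lactate and 25 and 9 with it. Sp140 had 19 and 17 against 15 and 16. Their log2 fold changes of −0.84 and −0.30 were not called. Sp100 passed the filter only through its control libraries, so that it was lower was set in part by the filter.

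Nat8f2, a member of the N-acetyltransferase 8 family, had 7 reads in each library without lactate and 27 and 35 with it. The libraries of the groups did not overlap, and the mean was 0.387 ± 0.0253 CPM in the control and 1.61 ± 0.227 in the lactate libraries (SD, n = 2), for a log2 fold change of 2.05 ± 0.35 (SE). The gene lies on chromosome 6 from 85865422 to 85869158 and overlaps no other annotated gene. Its relative Nat8f4 shared 6.8% of the 100-base windows of Nat8f2 and had 128 and 167 reads against 159 and 231, a log2 fold change of 0.32 that was not called. Nat8f1 had 3 and 11 against 9 and 29 reads, so its groups overlapped. These 2 were the only ones of 8 relatives with enough reads, and edgeR and DESeq2 called neither, nor had either an unadjusted p-value under 0.05.

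Zfp560, a zinc finger gene on chromosome 9 (20345136 to 20385177), had the most raw reads of the 10 genes. There were 71 and 84 reads without lactate and 211 and 164 with it. Both lactate libraries were above both control libraries, with means of 9.83 ± 2.15 and 4.27 ± 0.227 CPM (SD, n = 2), for a log2 fold change of 1.20 ± 0.23 (SE). RSEM gave 58 and 64 against 169 and 136 reads, and a log2 fold change of 1.23. Sequence of Zfp560 is nearly private, since 1.5% of its 100-base windows were found in transcripts of other genes.

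**Figure D1:**
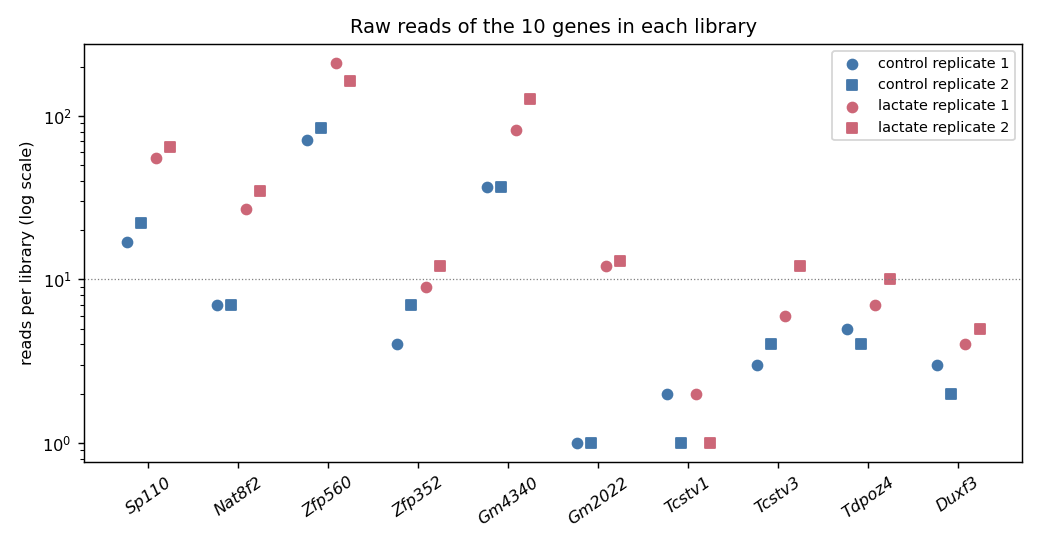
Raw reads (vertical axis, log scale) of each of the 10 genes in the 2 control (blue) and 2 lactate (red) libraries, with circles for replicate 1 and squares for replicate 2. The dotted line marks 10 reads. The lactate libraries lie above the control libraries for Sp110, Nat8f2, Zfp560, Gm4340 and Gm2022 by the widest margins, and 5 genes stay at or below 12 reads in every library.

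Zfp352 had 4 and 7 reads without lactate and 9 and 12 with it. RSEM assigned 4 and 7 against 10 and 12 reads, nearly the same numbers, and 0.6% of the windows of Zfp352 were shared with another gene. The lactate to control ratio of reads, scaled to library size, was 1.81, with an exact 95% interval of 0.833 to 4.15. Such intervals come from reads pooled within each group and cover counting error only, so no test is read from them. Zfp352 (chromosome 4, 90218820 to 90225702) fell short of the filter on low counts and is reported by its reads.

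Gm4340, which lies on chromosome 10 from 104194042 to 104196522, had 37 reads in each library without lactate and 82 and 127 with it. The mean was 2.04 ± 0.134 CPM in the control and 5.42 ± 1.43 in the lactate libraries (SD, n = 2), for a log2 fold change of 1.41 ± 0.28 (SE). Of its 100-base windows, 94.7% were found in transcripts of 6 other genes, Gm8764, Gm6763, Gm21312, Gm21304, Gm21293 and Gm20765. The raw table placed nearly all reads on Gm4340 and at most 4 reads in any library on each of the others. RSEM divided more reads among the group, and Gm4340 with the 6 others held 154 and 188 RSEM reads without lactate and 404 and 533 with it. The ratio of lactate to control was 2.77 in the raw reads of the group, scaled by library total and TMM. In RSEM it was 2.72, scaled by library total alone. The group held 291 reads in the raw table and 1279 in RSEM.

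Gm2022 belongs to a cluster of genes like Eif1a, the gene for a translation initiation factor, and lies on chromosome 12 from 87895370 to 87895804. The raw table gave it 1 read in each library without lactate and 12 and 13 with it. The ratio of the totals was 11.8, with an exact 95% interval of 2.95 to 103 that covers counting error only, and the fitted log2 fold change was 3.41 with a standard error of 0.57, a value that depends on the prior count because of the few control reads. In the RSEM tables the same gene had 1.01 and 0 reads without lactate and 0.72 and 1.21 with it, so the difference was not seen there. RSEM assigned it 2.9 reads in all, against 27 in the raw table.

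The reads of Gm2022 were then set beside those of the genes that share its sequence. Of its 100-base windows, 66.7% were found in transcripts of 12 other genes, and 6 of these, Gm2016, Gm8607, Gm4027, Gm2075, BB287469 and Gm8332, each held at least 20% of them. Together with these 6, Gm2022 had 67 and 91 raw reads without lactate and 242 and 325 with it, and 83.8 and 90.5 against 278 and 338 in RSEM. The ratios of the group were 3.40 and 3.51, with TMM in the scaling of the raw reads only. The value of Gm2022 on its own is therefore uncertain. Eif1a itself held 13.7% of the 50-base windows of Gm2022 and none of the longer ones, and it had 3788 and 3734 reads without lactate and 3625 and 3854 with it.

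**Figure D2:**
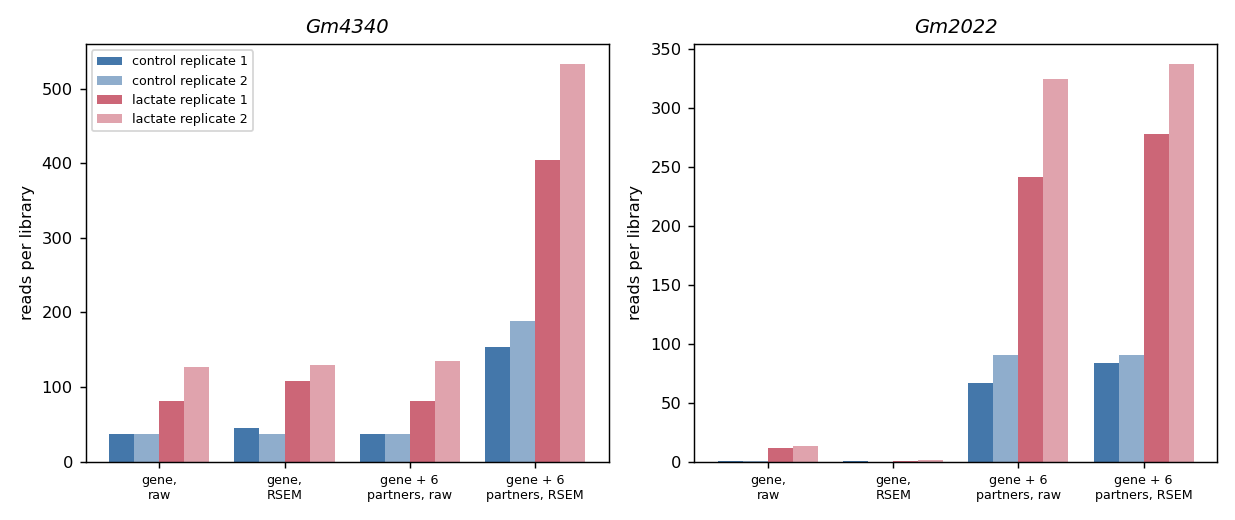
Reads per library (vertical axis) of Gm4340 (left) and Gm2022 (right), alone and summed with the 6 genes that hold at least 20% of their 100-base windows, in the raw counts and in RSEM. Control libraries are blue and lactate libraries red, with replicate 2 paler. RSEM shows many more reads than the raw table for the Gm4340 group, and for Gm2022 alone the lactate bars reach 12 and 13 reads in the raw counts and 0.72 and 1.21 in RSEM.

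Tcstv1 and Tcstv3 belong to a group of genes first described as transcripts of the two-cell stage, and both lie on chromosome 13 (119893388 to 119894785 and 120316878 to 120318178). Tcstv1 had 2 and 1 reads without lactate and 2 and 1 with it. It was the only one of the 10 genes whose groups overlapped. Its ratio of 0.947 had an exact 95% interval of 0.127 to 7.07 from counting error alone. With so few reads, neither a change nor its absence could be shown. Tcstv3 had 3 and 4 reads against 6 and 12, a ratio of 2.43 with an interval of 0.970 to 6.89. In RSEM, Tcstv3 had 3 and 2 reads against 4 and 10.2, and Tcstv1 had 1 read, in lactate replicate 2.

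Tdpoz4, a gene with TRAF and POZ domains on chromosome 3 (93796398 to 93797510), had 5 and 4 reads without lactate and 7 and 10 with it. Its ratio was 1.79, with an exact 95% interval of 0.754 to 4.55 from counting error alone. RSEM gave 1 and 3 reads against 4 and 7.64.

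Duxf3 (chromosome 10, 58229979 to 58232675) had 3 and 2 reads without lactate and 4 and 5 with it. The ratio was 1.70, with an interval of 0.513 to 6.47 from counting error alone. Neither a change nor its absence could be shown from these few reads. RSEM assigned 2.56 and 2 reads against 1 and 4, and there the lactate libraries no longer lay above the control libraries. Of the windows of Duxf3, 24.2% were in transcripts of other genes, and AW822073 held 16.5% of all windows of Duxf3. AW822073 had 2 and 1 reads without lactate and 3 and 10 with it. Of 5 Dux relatives, Duxbl3 alone could be tested, having passed only through its lactate libraries, and its 19 and 4 reads overlapped with the 24 and 17 of the lactate libraries.

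**Figure D3:**
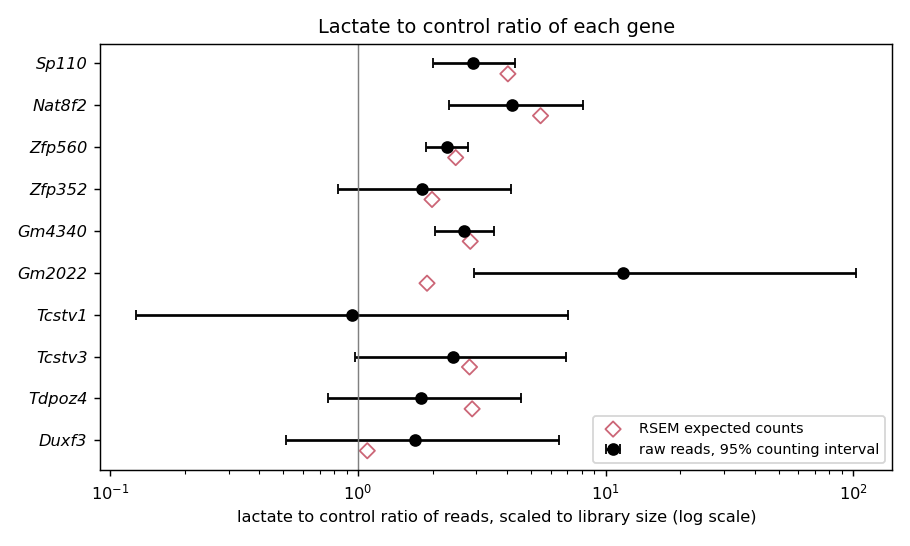
Lactate to control ratio of reads scaled to library size (horizontal axis, log scale) for each gene, from the raw reads with exact 95% counting intervals (black) and from RSEM (open diamonds, none for Tcstv1, which has no control reads in RSEM). The intervals come from reads pooled within each group and cover counting error only, not the spread between libraries. The genes were picked with this contrast known, so no test is read from whether an interval includes 1. The RSEM ratio of Gm2022, 1.90, lies below its raw interval. Raw ratios were scaled by library total and TMM, and RSEM ratios by library total alone.

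Over the 10 genes, 9 had both lactate libraries above both control libraries in CPM, as did 22.5% of all genes with at least 1 read. The filter on low counts was passed by 5 members, Sp110, Nat8f2, Zfp560, Gm4340 and Gm2022, of which Nat8f2 and Gm2022 passed only through their lactate libraries. None of these 5 was called higher by edgeR, where 0.552% of all genes tested were called higher and 0.9% in either direction. All 5 had log2 fold changes above 1, as had 4.32% of all genes tested. At an unadjusted p-value under 0.05, all 5 were higher, against 11.7% of all genes tested. DESeq2 called 2 of the 10, Zfp560 and Gm4340, against 1.12% of genes called higher, and edgeR without the filter called the same 5 that had passed it, against 1.46%. Without lactate replicate 1, 4 members were called, against 1.91% of all genes called higher, and without lactate replicate 2 also 4, against 2.59%. Without control replicate 1 no member was called, against 0.229%, and without control replicate 2 none either, against 0.855%. Since the members were chosen with this contrast known, these counts are given as they stand and nothing is read from them.

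The genes differed widely in level. Per transcript length, in the TPM of RSEM, Gm4340 and Zfp560 were highest in the control libraries, at 4.58 and 3.52 TPM and at 3.38 and 3.78 TPM, and the ranges of these genes overlapped. Every other member was below 1 TPM in both control libraries, in the order Tcstv3, Gm2022, Sp110, Zfp352, Tdpoz4, Nat8f2 and Duxf3 (the last pair with equal means), from 0.495 down to 0.115 TPM, and each overlapped with the next in that order. Tcstv1 was listed at 0 in both. With lactate, Gm4340 was at 12 TPM in both libraries and Zfp560 at 8.14 and 8.57, without overlap. Sp110 was in the third place there and in the fifth in the control, at 2.20 and 2.77 TPM with lactate, and overlapped with Tcstv3, at 0.870 and 2.87. Duxf3 stayed below 0.2 TPM in all 4 libraries. The order in the control libraries was the same in FPKM.

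**Figure D4:**
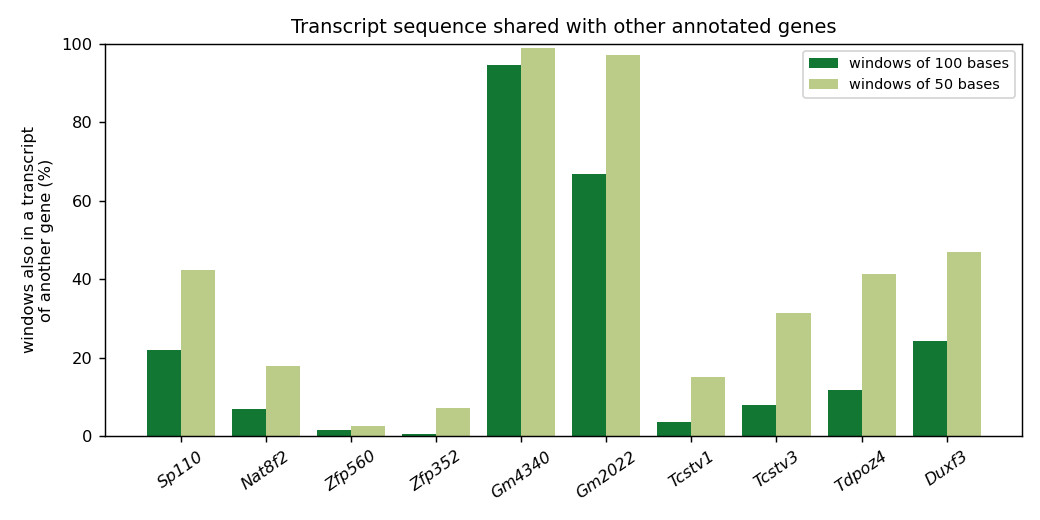
Share of the distinct 100-base (dark) and 50-base (pale) windows in the annotated transcripts of each gene that also occur, on either strand, in a transcript of another gene (vertical axis, percent). Gm4340 and Gm2022 stand out with 94.7% and 66.7% of the longer windows, and Zfp560, Zfp352 and Tcstv1 are below 4%.

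Among all genes tested, those with the most similar profile over the 4 libraries were looked up for each member that passed the filter, by the root mean square difference of centred log2 CPM among genes of similar mean level. The nearest gene was Ahrr for Sp110 (difference 0.0473), Arhgap25 for Nat8f2 (0.0672), Ebf4 for Zfp560 (0.0700), Gm13217 for Gm4340 (0.0737) and Gm7804 for Gm2022 (0.108). Ahrr, for example, had 17 and 20 reads without lactate and 54 and 62 with it. With 4 libraries in 2 groups, such likeness follows mostly from a similar fold change.

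Other genes of the two-cell program, outside the Zscan4 and Usp17l families, were followed with a list of 58 genes written from general knowledge. Earlier results of these data were known when it was written, so the list is no independent check. The table held 55 of these, and 18 passed the filter, 15 with a positive and 3 with a negative log2 fold change. Their median was 0.92, against 0.01 over all 18661 genes tested. Of the 18, 6 passed only through their lactate libraries (AF067061, Gm12794, Pramef25, Gm2035, Gm4027 and BB287469), as did 4.89% of all genes tested, so the median and the split of directions are set in part by the filter. Without the filter, 33 of the 40 listed genes with a read had positive and 7 negative log2 fold changes, against 50.1% positive among all genes with a read. One gene, Gm8300, rose past both thresholds, against 0.552% of all genes. It is another gene like Eif1a, with 22 and 24 reads without lactate and 76 and 85 with it, for a log2 fold change of 1.72 ± 0.24 (SE) and an adjusted p-value of 0.0467 by edgeR. DESeq2 called 5 genes of the list as higher, against 1.12% of all genes. At an unadjusted p-value under 0.05, 10 of the 18 were higher and 1 lower in edgeR, against 11.7% and 11.4% of all genes tested. The 10 include Gm12794, Pramef25, Gm4027 and BB287469, which passed only through lactate, so nothing is read from this count. The call of Gm8300 was lost without control replicate 1, when no gene of the list was called, and also in the RSEM counts. Without control replicate 2, 3 genes of the list were called, and without either lactate replicate 6, while the share of all genes called higher was 0.229% and 0.855% without control replicates 1 and 2 and 1.91% and 2.59% without lactate replicates 1 and 2.

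Some genes of that list share windows with Gm2022. Gm8300, the called gene, is among them, with 7.7% of the 100-base windows of Gm2022. The counts over the list are therefore not all from genes of unrelated sequence. Gm2016 had 25 and 42 reads without lactate and 104 and 148 with it, and Gm4027 had 15 and 8 against 43 and 61. Their log2 fold changes were 1.83 and 2.08, and neither was called (adjusted p-value 0.0520 for Gm2016, edgeR). Gm4027 passed only through lactate, so nothing is read from its adjusted p-value. Gm5662 had 38 and 30 against 80 and 130 reads, with a log2 fold change of 1.53 (adjusted p-value 0.0673, edgeR). BB287469 and Gm2035, which also share windows with Gm2022, had smaller log2 fold changes of 1.26 and 0.92. Both passed only through lactate and were not called. Apart from Gm8300, these genes were named for their shared sequence after their values were seen. The 37 listed genes that did not pass the filter had 57 reads in the control and 165 in the lactate libraries in total, and 15 of them had no read in any library.

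The regulators of Dux were examined last. Dppa2 and Dppa4, a pair of chromatin proteins needed for Dux expression in ESCs, had 1249 and 1039 against 1435 and 1348 reads, and 805 and 1169 against 970 and 1320 reads. Their log2 fold changes of 0.20 (standard error 0.17) and 0.14 (0.20) were not called. Of the 4 activators, which also include Nelfa and Trp53, none was called by edgeR or DESeq2. Trp53, which encodes p53, had 4944 and 5335 reads against 3723 and 3927, for a log2 fold change of −0.51 ± 0.13 (SE) and an adjusted p-value of 0.0946 by edgeR, and it was the only activator with an unadjusted p-value under 0.05. Nelfa had a log2 fold change of −0.29.

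Genes known to restrain Dux or the two-cell program numbered 18 and all passed the filter, 5 with a positive and 13 with a negative log2 fold change, where 49% of all genes tested were negative. Their median was −0.21, against 0.01 over all genes tested, and both edgeR and DESeq2 called none. At an unadjusted p-value under 0.05, 6 of the 18 were lower and 1 was higher, against 11.4% and 11.7% of all genes tested. Ehmt2, an H3K9 methyltransferase, had 2286 and 3170 reads without lactate and 1401 and 1806 with it, for a log2 fold change of −0.84 ± 0.18 (SE) and an adjusted p-value of 0.0678 by edgeR. Max, a subunit of the PRC1.6 complex, had 1714 and 1400 against 1178 and 1148 reads, for a log2 fold change of −0.51 ± 0.18 (SE) and an adjusted p-value of 0.161 by edgeR. For both genes the libraries of the groups did not overlap in reads or in CPM. The share of all genes with both lactate libraries below both control libraries was not worked out. In the other direction, 27% of all genes tested had both lactate libraries above both control libraries in CPM.

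**Figure D5:**
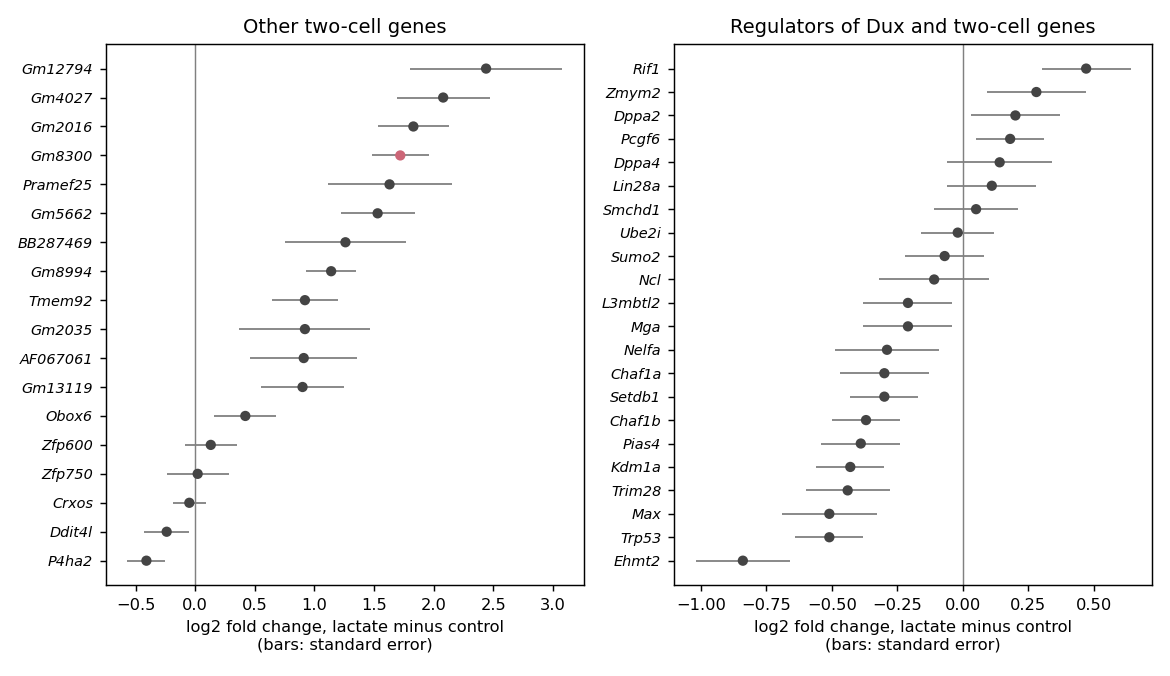
Log2 fold change, lactate minus control (horizontal axis, bars show the standard error), of the 18 other two-cell genes (left) and the 22 regulators of Dux and two-cell genes (right) that passed the filter. Gm8300, in red, is the only gene called. Most two-cell genes lie right of 0, and among the regulators Ehmt2 lies farthest left, at −0.84.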

How the data were processed

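RNA-seq data of 2 control and 2 lactate libraries were analysed. Adapters were removed by the authors using cutadapt 1.16, and alignment to mm10 was by STAR under the GENCODE release M23 annotation. The authors report counting reads per gene with STAR. The table of raw counts that they deposited also holds 1153 transposable element families. Which program made this table, how it treated shared reads and whether it used strand are not given in the sources used here. For each library they also deposited the expected counts, TPM and FPKM of RSEM. RSEM by design divides shared reads among genes.

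Raw gene counts were tested in R 4.3.3 with the quasi-likelihood test of edgeR 4.0.16 (legacy form) after filterByExpr and TMM, over 18661 genes, with Benjamini-Hochberg adjustment. A gene passed only through lactate where both lactate libraries and not both control libraries reached the level of that filter. Passing only through control was defined the other way round. Calls required both an adjusted p-value below 0.05 and over 2-fold. The standard error is the log2 fold change divided by the square root of F. Alternatives used DESeq2 1.42.0, limma 3.58.1 on log2(FPKM + 1) and log2(FPKM + 0.1), other scalings and filters, a replicate term, the rounded RSEM counts, and each library left out. The fit was tested on simulated data first. The 10 members and the lists were chosen with earlier results of these data known, and p-values measure only the spread between these libraries.

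By rule, the genes named are the members, called genes of the lists (or the 2 with the largest changes where none was called), Dppa2 and Dppa4, and the nearest profiles. Genes named besides these, for shared sequence or promoter words or in the closing section, and Sp100 and Sp140, were chosen after their values were seen. Positions come from GENCODE release M21 on GRCm38, the build of the files, which held 55154 of 55335 gene identifiers. Promoters come from RefSeq on GRCm38.p6. Because no genome sequence was used, copies were searched by exact windows of 100 and 50 bases in the transcripts of GENCODE release M21, an approach chosen after the data were seen. No column of other samples was present.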

Additional observations from a re-analysis of the deposited data

Results flagged for a closer look

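The transposable element families of the count table were outside the comparisons above, and reads of MERVL, the retrovirus active at the two-cell stage, were higher with lactate. MERVL-int, the internal part of the element, had 9842 and 11176 reads without lactate and 19630 and 23024 with it. Scaled to gene reads, the ratio of the group means was 1.92. Its long terminal repeat MT2_Mm had 1838 and 2006 reads against 3187 and 3563, a ratio of 1.66. In each family the lactate libraries were the higher ones, without overlap, and no test was made. These 2 were picked by name from 1153 families, and the share of all families without overlap was not worked out. Among genes with at least 1 read, 22.5% had both lactate libraries above both control libraries in CPM. Whether the shared promoter run of Sp110 and Gm4340 belongs to a repeat family was not tested.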

How the results depend on the processing

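Among all genes, 103 were called higher and 65 lower by edgeR. The numbers were 482 and 325 without the filter on low counts, 190 and 168 with DESeq2, and 27 and 17 with the RSEM expected counts. Library totals alone gave 40 lower. Leaving out one library at a time gave from 45 to 502 higher and from 39 to 367 lower, and the library left alone in its group was then assumed to vary like the others. Members called went from 0 to 5 without the filter, to 2 with DESeq2 and, over the libraries left out, from 0 to 4. Other two-cell genes called went from 1 to 6 without the filter, 5 with DESeq2, 0 with RSEM and from 0 to 6 over the libraries left out. No Dux regulator was called under any of these alternatives or with a replicate block.

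With a replicate block, edgeR called 761 genes higher and 395 lower, 5 members and 8 other two-cell genes. Same-numbered libraries deviated together (correlation 0.561 over 18661 genes), but the labels do not say that the numbers mark a shared batch, so the block is no main result. The cause of these shifts was not tested.

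Every member that passed the filter kept a positive log2 fold change under every alternative that gave a value. Sp110 ranged from 1.14 with log2(FPKM + 1) to 2.42 with log2(FPKM + 0.1), and Gm2022 from 0.25 to 3.54. Nat8f2 and Gm2022 were not tested with at least 10 counts in every library, nor was Gm2022 in the RSEM counts or without lactate replicate 2. With windows of 50 bases the shared part was larger for each member, 42.3% for Sp110 and 97.2% for Gm2022. The planned search for copies in a genome sequence at 98% or 95% identity was not run.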

Other observations

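Gm21818, a gene that shares 100-base windows with both Tcstv1 and Tcstv3, had no raw read without lactate and 9 and 8 raw reads with it. RSEM gave it none without lactate and 1 read in each lactate library, so its reads are uncertain in the same way as those of Gm2022. Gm12794, a listed two-cell gene, had 1 and 13 reads without lactate and 38 and 43 with it, and was not called (adjusted p-value 0.101, edgeR).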
